A study of Mus musculus with 10 samples.

Results

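The canonical histone genes were taken as all genes whose Ensembl symbol begins with Hist1h, Hist2h, Hist3h or Hist4. These were 70 of the 54838 genes in the deposited tables, of which 6 encode H1, 20 H2A, 19 H2B, 12 H3 and 13 H4. Of the 70 genes, 56 lie on chromosome 13, 10 on chromosome 3, 3 on chromosome 11 and 1 on chromosome 6, and 3 are annotated as pseudogenes. The contrast was a list of 19 replication-independent histone variants, such as H2afz and H3f3b.

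The libraries were made from crypts of the jejunum, 1 animal each, with 5 WT mice and 5 Arid3a cKO mice. The cKO mice were VillinCre-ERT2+/-; Arid3a fl/fl, so the deletion is directed to Villin+ epithelial cells and leaves stromal and immune cells of the crypt preparation untouched. Both genotypes were given tamoxifen on 3 consecutive days and were culled 1 month after the first injection. The ages of the animals were not given in the sources used here. The animal codes of all WT mice begin with 1 prefix and those of all cKO mice with another. The labels and the paper do not say what the prefix stands for. If it marks separate colonies, a colony effect would fall wholly within the contrast of cKO and WT libraries. Arid3a itself was at 1.91, 2.06, 2.75, 2.68 and 2.69 CPM (count scaled to the normalized library size) in WT animals 1 to 5 and at 0.303, 0.516, 0.489, 0.883 and 1.17 CPM in cKO animals 1 to 5.

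Canonical histone mRNAs are made in S phase, when new DNA has to be packed into nucleosomes. Their precursors carry a short stem-loop near the 3′ end that is bound by SLBP, and cleavage just after it leaves an mRNA without a poly(A) tail. Some of these genes also give polyadenylated transcripts, particularly in differentiated cells. Most, but not all, of the variants listed as replication-independent are transcribed throughout the cell cycle and only polyadenylated. In the crypt, the transit-amplifying cells are the main cycling compartment. The libraries were selected for poly(A), which retains tailless mRNAs poorly, and a level below is the level of what this selection retained. In bulk crypts, fewer cells of a type and less RNA per cell cannot be told apart.

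The 3′ elements of the genes that carry the results are shown first, because the libraries were selected by poly(A) tail. They were read from the GENCODE transcripts on GRCm38. The stem-loop was searched on the transcript strand as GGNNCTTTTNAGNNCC and stands in capitals with the bases around it.
Hist1h2ap, chr13:21833026-21833049, minus strand: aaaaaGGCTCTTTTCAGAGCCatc
Hist1h2bb, chr13:23747198-23747223, plus strand: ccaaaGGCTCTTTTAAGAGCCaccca
Hist1h4m, chr13:21812124-21812147, plus strand: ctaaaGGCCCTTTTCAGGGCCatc
Hist1h1d, chr13:23555782-23555807, plus strand: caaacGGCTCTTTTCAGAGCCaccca
Hist1h1e, chr13:23621777-23621802, minus strand: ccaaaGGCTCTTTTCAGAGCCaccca
Hist1h1c, chr13:23739507-23739532, plus strand: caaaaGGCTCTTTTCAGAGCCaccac
The core of Hist1h1c, which was higher in cKO crypts, has the same 16 letters as those of Hist1h1d and Hist1h1e, which were lower.

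A poly(A) signal was searched as AATAAA or ATTAAA in the last 50 bases of the annotated transcripts, again on the transcript strand, and stands in capitals in the following 30-base stretches.
Hist1h1c, chr13:23740338-23740367, plus strand: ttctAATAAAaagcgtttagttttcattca
Hist2h2be, chr3:96223709-96223738, plus strand: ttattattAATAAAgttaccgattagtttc
Hist1h4i, chr13:22040636-22040665, minus strand: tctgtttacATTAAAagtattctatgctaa
Of the 70 genes, 22 had an annotated transcript that ended at most 100 bases after the stem-loop, 22 had one that extended further, and 26 held no stem-loop letters in their annotated transcripts. A poly(A) signal near the annotated end was present in 17 genes and not found in 53. A missing match says only that these letters are not in the annotated transcript, which for some histone genes covers little more than the coding sequence.

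Of the 70 canonical genes, 30 passed the filter on low counts and 40 did not. Among the 30, 12 passed the threshold of an adjusted p of 0.05 in edgeR's quasi-likelihood test, 8 lower and 4 higher in cKO crypts. Over all 14719 genes tested, 28.3% were called, 12.7% lower and 15.6% higher. The median log2 fold change (cKO over WT) was -0.26 over the 30 genes and -0.03 over all genes tested, and 19 of the 30 values were below 0. The groups did not overlap for 6 genes that were lower and 2 that were higher in cKO crypts, beside 7.62% and 12.0% of all genes. The filter bears on these counts. Of the 30 genes, 9 reached the filter level of 0.354 CPM, which here is on library totals without TMM scaling, in all 5 WT libraries but not in all cKO libraries, among them Hist1h1b, Hist1h2bb, Hist1h2bj, Hist1h4c and Hist1h4m of the 8 called lower, so these counts are no support for a direction of the family. With scaling by library size only, the median of all genes moved to -0.16, the calls over all genes to 1544 higher and 4030 lower in place of 2298 and 1869, and those among the canonical genes to 2 higher and 8 lower.

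**Figure D1:**
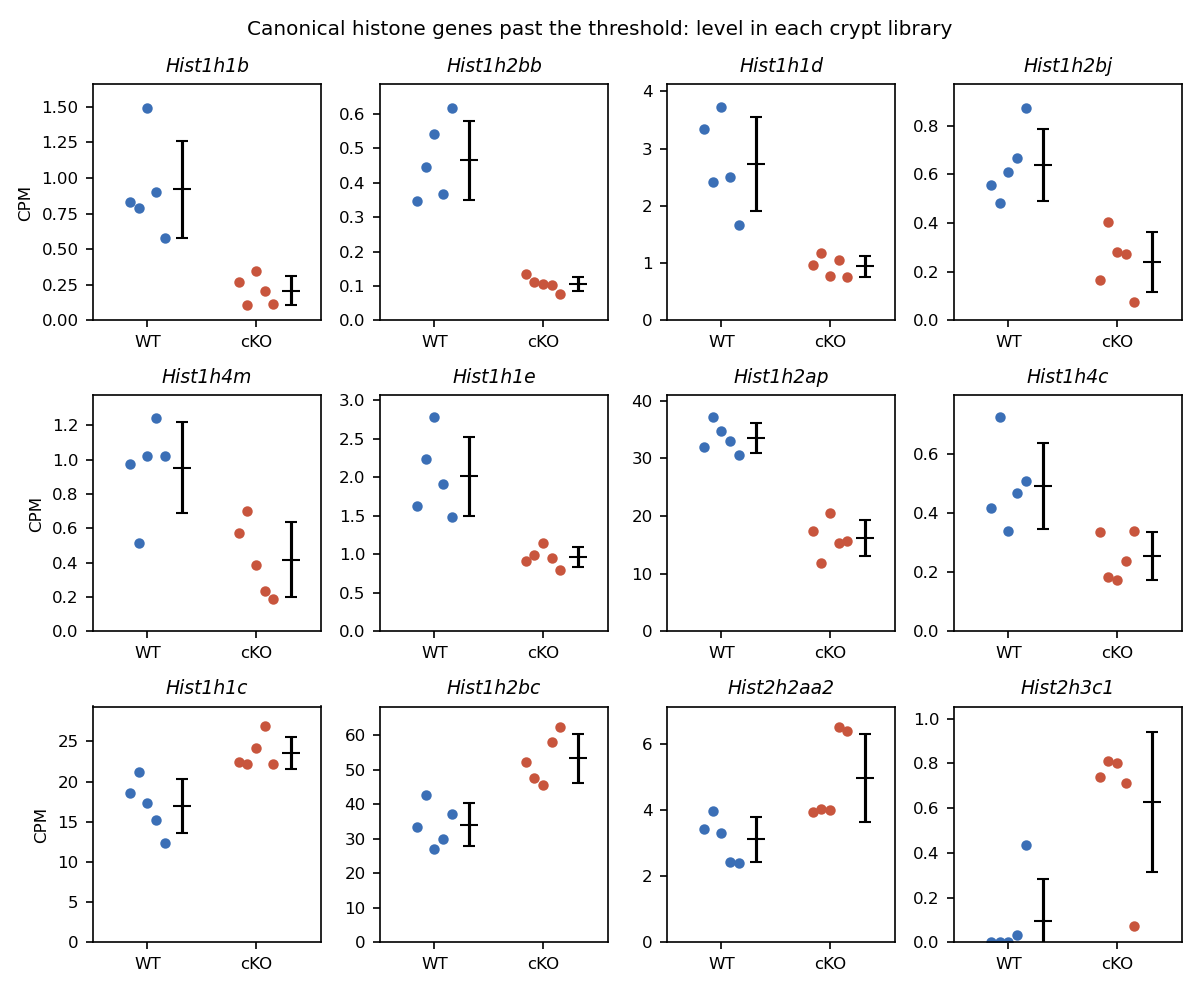
Level in CPM (y axis, from 0, scale differs by panel) of the 12 canonical histone genes past the threshold in 5 WT and 5 cKO crypt libraries; points are animals, and the bar is the mean with the SD, cut at 0 for Hist2h3c1. Hist1h2ap lay between 30.5 and 37.2 CPM in WT and between 11.9 and 20.5 CPM in cKO animals, while Hist1h2bc lay between 27.0 and 42.8 CPM in WT and between 45.6 and 62.5 CPM in cKO animals.

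The linker histones, which bind the DNA between nucleosomes, split by gene. Hist1h1b was at 0.835, 0.791, 1.49, 0.904 and 0.581 CPM in WT animals 1 to 5 and at 0.269, 0.111, 0.349, 0.204 and 0.113 CPM in cKO animals 1 to 5. Hist1h1d was at 3.34, 2.41, 3.73, 2.51 and 1.67 CPM in WT and at 0.976, 1.18, 0.769, 1.05 and 0.756 CPM in cKO animals. Hist1h1e was at 1.63, 2.24, 2.78, 1.91 and 1.49 CPM in WT and at 0.909, 0.995, 1.15, 0.951 and 0.794 CPM in cKO animals. For all 3 genes, every cKO animal was below every WT animal. In the edgeR quasi-likelihood test the log2 fold change was -2.10 (SE 0.37, adjusted p = 0.00249) for Hist1h1b, -1.52 (SE 0.24, adjusted p = 0.00153) for Hist1h1d and -1.06 (SE 0.22, adjusted p = 0.00505) for Hist1h1e. The depth behind Hist1h1b was small, with 16 to 44 counts per WT library and 3 to 10 per cKO library. Hist1h1e overlaps Hist1h2be on the same strand, so their counts may be divided between them.

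Hist1h1c went the other way. It was at 18.6, 21.2, 17.3, 15.2 and 12.4 CPM in WT animals and at 22.4, 22.2, 24.2, 26.9 and 22.2 CPM in cKO animals, with all cKO animals above all WT animals. Its log2 fold change was 0.48 (SE 0.13, adjusted p = 0.0158, edgeR). This call was kept in each of the 10 fits that left out 1 animal and was lost with scaling by library size only and without WT replicates 3 and 4, where edgeR's quasi-likelihood test gave 0.44 (adjusted p = 0.0829). Hist1h1c is the only one of the 4 tested H1 genes with a poly(A) signal near the annotated end, and it held 83.1% of the H1 counts. The H1 sum was therefore 22.9 ± 4.20 CPM in WT crypts and 25.8 ± 2.10 CPM in cKO crypts (SD, n = 5), with overlapping groups. Without Hist1h1c it was 5.99 ± 1.53 CPM in WT crypts and 2.25 ± 0.278 CPM in cKO crypts, with every cKO animal lower.

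The promoters of these 4 H1 genes are shown because genes of 1 class with like promoters moved in opposite directions. They come from RefSeq on GRCm38.p6, and each line gives 120 bases. The motif TATAAA, the motif CCAAT and the motif AAACACA were searched on both strands and stand in capitals.
Hist1h1b, chr13:21780626-21780745, minus strand: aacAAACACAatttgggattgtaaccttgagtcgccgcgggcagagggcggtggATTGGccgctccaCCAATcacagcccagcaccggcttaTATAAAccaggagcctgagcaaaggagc
Hist1h1d, chr13:23554912-23555031, plus strand: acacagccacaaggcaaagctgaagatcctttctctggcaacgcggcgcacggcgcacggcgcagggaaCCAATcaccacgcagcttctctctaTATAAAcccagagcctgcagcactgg
Hist1h1e, chr13:23622559-23622678, minus strand: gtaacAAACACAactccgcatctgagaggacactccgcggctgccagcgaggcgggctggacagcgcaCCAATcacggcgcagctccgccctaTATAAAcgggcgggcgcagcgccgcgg
Hist1h1c, chr13:23738687-23738806, plus strand: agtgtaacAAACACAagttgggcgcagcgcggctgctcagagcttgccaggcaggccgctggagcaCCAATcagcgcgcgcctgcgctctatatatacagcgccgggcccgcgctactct
In windows of 300 bases, from 250 before to 50 after the start, all 4 held CCAAT and AAACACA, and TATAAA was found in Hist1h1b, Hist1h1d and Hist1h1e but not in Hist1h1c. The search took exact letters only, so a TATA stretch with other letters, as in the Hist1h1c line, was not counted. Promoters of 62 of the 70 genes were matched. AAACACA was present in 83.3% of the 6 H1 promoters, 14.5% of all 62 and 7.2% of 32851 promoters in the table. CCAAT was present in 85.5% of the 62 promoters and in 37.4% of the table, and within the family in every matched H1, H2A, H2B and H3 promoter but in 25.0% of those of H4. TATAAA was present in 56.5% of the 62 promoters and in 13.6% of the table.

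Among the H2A genes, Hist1h2ap was the most abundant by count, with 59.0% of the class. It was at 32.0, 37.2, 34.8, 33 and 30.5 CPM in WT animals and at 17.4, 11.9, 20.5, 15.4 and 15.7 CPM in cKO animals. The groups stood well apart, and the log2 fold change was -1.05 (SE 0.12, adjusted p = 4.53e-04, edgeR). Of its 100-base windows, 92.2% are shared with other transcripts, and RSEM divides such reads among the copies. Its near-identical copy Hist1h2ao, named here after its values were seen, was at 0 counts in all WT libraries and in cKO replicate 4 but at 42, 217, 72 and 63 counts in cKO replicates 1, 2, 3 and 5. When the counts of Hist1h2ag, Hist1h2ao and Hist1h2ap were summed before the fit, the level was 34.2 ± 2.61 CPM in WT crypts and 19.6 ± 2.90 CPM in cKO crypts (SD, n = 5). The log2 fold change of that sum was -0.80 (SE 0.10, adjusted p = 6.90e-04, edgeR), smaller than for Hist1h2ap alone.

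Hist2h2aa2 rose. It was at 3.44, 3.99, 3.32, 2.44 and 2.40 CPM in WT animals and at 3.94, 4.05, 4.02, 6.52 and 6.39 CPM in cKO animals. The groups overlapped, since cKO replicate 1 lay just below WT replicate 2, and cKO replicates 4 and 5 were the highest. The log2 fold change was 0.67 (SE 0.21, adjusted p = 0.0301, edgeR), and the call was lost in 4 of the 10 fits that left out 1 animal, namely WT replicate 4 or 5 or cKO replicate 4 or 5, where the lowest value was 0.56. Its sequence is shared in full with other transcripts, and summed with Hist2h2aa1 it gave 0.63 (SE 0.20, adjusted p = 0.0313, edgeR). Hist3h2a ranged from 6.02 to 8.17 CPM in WT and from 6.97 to 10 CPM in cKO animals (log2 fold change 0.19, SE 0.13, adjusted p = 0.287, edgeR). It overlaps Trim17 on the same strand.

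Summed over all 20 genes, H2A was at 48.6 ± 3.35 CPM in WT crypts and 35.6 ± 1.76 CPM in cKO crypts (SD, n = 5), with every cKO animal lower. Without Hist1h2ap the sum was higher in cKO crypts (a log2 ratio of 0.36), but without Hist1h2ag, Hist1h2ao and Hist1h2ap together the groups overlapped, from 13 to 15.4 CPM in WT and from 14.1 to 19.4 CPM in cKO animals. Within that remainder, a set of 8 genes joined by shared sequence (Hist1h2ab, Hist1h2ad, Hist1h2ae, Hist1h2af, Hist1h2ah, Hist1h2ai, Hist1h2aj and Hist1h2an) was lower when summed. The sum was at 2.17 ± 0.484 CPM in WT crypts and 1.1 ± 0.371 CPM in cKO crypts (SD, n = 5). The log2 fold change of this sum was -0.98 (SE 0.26, adjusted p = 0.0152, edgeR), although Hist1h2ae, the 1 copy of these tested singly, was at 0.04 (SE 0.41).

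Among the H2B genes, Hist1h2bc held 68.0% of the counts and rose. It was at 33.4, 42.8, 27.0, 30 and 37.1 CPM in WT animals and at 52.3, 47.7, 45.6, 58.1 and 62.5 CPM in cKO animals, without overlap. The log2 fold change was 0.65 (SE 0.13, adjusted p = 0.00403, edgeR), and the call held in all 10 fits without 1 animal. As a percentage of Hist1h2bc, the count of Hist1h2ap was 101 ± 19.0 in WT and 31.0 ± 8.54 in cKO animals (SD, n = 5), a ratio within each library that does not depend on the scaling between libraries. It does depend on the division of reads among copies. It leaves out Hist1h2ao, at 0 counts in all WT libraries and at up to 217 in a cKO library.

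The H2B genes that fell were rare in these libraries. Hist1h2bb was at 0.348, 0.447, 0.543, 0.368 and 0.618 CPM in WT animals and at 0.135, 0.111, 0.105, 0.102 and 0.0756 CPM in cKO animals, with 2 to 4 counts in each cKO library (log2 fold change -2.09, SE 0.33, adjusted p = 0.0015, edgeR). Hist1h2bj was at 0.557, 0.482, 0.610, 0.669 and 0.872 CPM in WT animals and at 0.168, 0.405, 0.280, 0.272 and 0.0756 CPM in cKO animals (log2 fold change -1.39, SE 0.37, adjusted p = 0.0152, edgeR). Both showed no overlap between the genotypes. The call of Hist1h2bj was lost without WT replicates 3 and 4 (-1.39, adjusted p = 0.0697, edgeR). Hist2h2be ranged from 8.90 to 13.4 CPM in WT and from 10.7 to 14.4 CPM in cKO animals (log2 fold change 0.17, SE 0.12, adjusted p = 0.305, edgeR). Hist1h2bg ranged from 0.551 to 1.93 CPM in WT and from 1.21 to 2.65 CPM in cKO animals (log2 fold change 0.34, SE 0.32, adjusted p = 0.454, edgeR). The H2B sum was 55.1 ± 4.08 CPM in WT crypts and 73.3 ± 6.13 CPM in cKO crypts, every cKO animal being higher, and without Hist1h2bc the groups overlapped at 21 ± 2.82 and 20.1 ± 1.63 CPM (SD, n = 5).

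**Figure D2:**
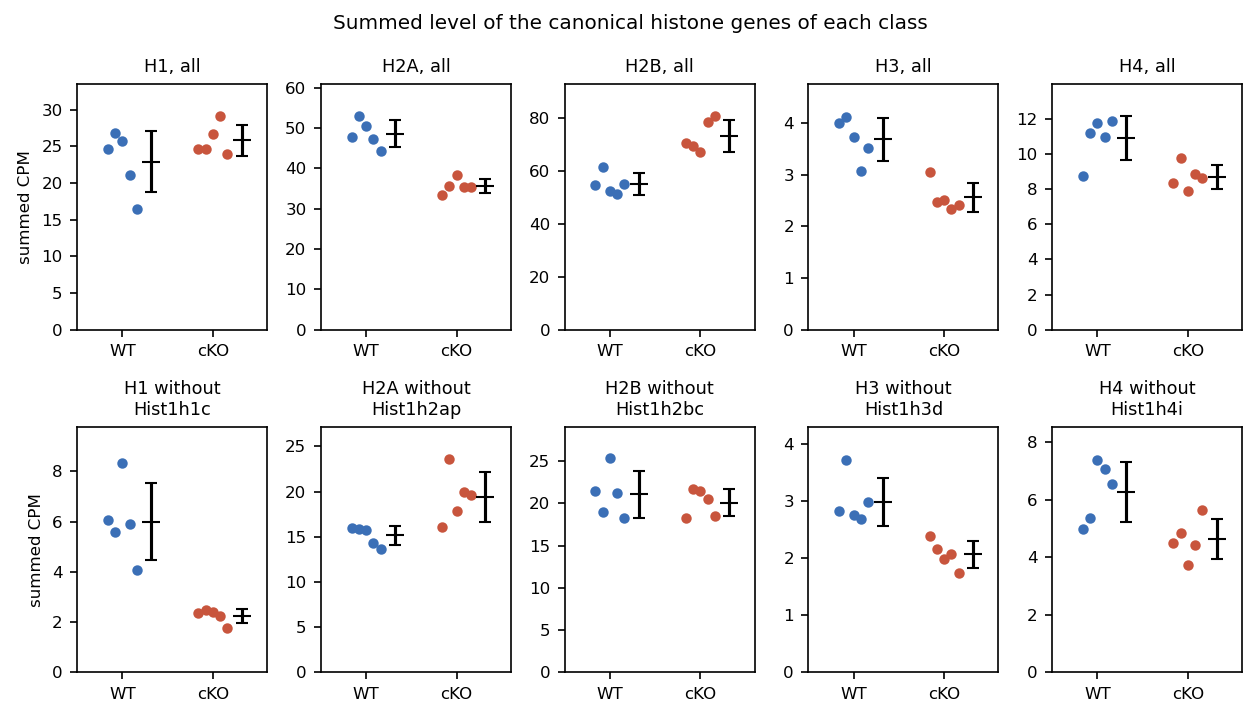
Summed CPM (y axis, from 0) of the canonical genes of each histone class in each animal, with all genes of the class in the upper panels and without its most abundant gene in the lower panels; bars are the mean with the SD of 5 animals. The H2A sum was lower and the H2B sum higher in every cKO animal, and the H1 sum separated the genotypes only without Hist1h1c.

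The H3 and H4 genes, whose proteins form the core tetramer of the nucleosome, had the lowest summed counts of the 5 classes. Hist2h3c1 was the sole H3 gene past the threshold, and 1 animal of each genotype departed from its group. It was at 0.0, 0.0, 0.0, 0.0335 and 0.436 CPM in WT animals and at 0.741, 0.810, 0.804, 0.713 and 0.0756 CPM in cKO animals, so that replicate 5 of each genotype lay with the other genotype. The fitted log2 fold change of 2.74 (SE 0.92, adjusted p = 0.046, edgeR) was called in only 2 of the 10 fits without 1 animal. Its copy Hist2h3b, below the filter and named after its values were seen, was the reverse, at 0.557, 0.757, 0.237, 0.569 and 0.436 CPM in WT animals and at 0.0, 0.0, 0.105, 0.0 and 0.0 CPM in cKO animals. All of the 100-base windows of Hist2h3c1 are shared, and with Hist2h3b and Hist2h3c2 added the level was 0.899 ± 0.283 CPM in WT crypts and 0.963 ± 0.412 CPM in cKO crypts, with a log2 fold change of 0.10 (SE 0.36, adjusted p = 0.851, edgeR). Hist1h3d ranged from 0.402 to 1.18 CPM in WT and from 0.272 to 0.681 CPM in cKO animals (log2 fold change -0.53, SE 0.40, adjusted p = 0.341, edgeR), and Hist2h3c2, not tested, reached at most 0.673 CPM. The sum of the 12 H3 genes was 3.69 ± 0.416 CPM in WT crypts and 2.56 ± 0.287 CPM in cKO crypts (SD, n = 5), lower in every cKO animal, with WT values from 3.08 CPM and cKO values up to 3.06 CPM.

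For H4, Hist1h4m was at 0.974, 0.516, 1.02, 1.24 and 1.02 CPM in WT animals and at 0.572, 0.700, 0.384, 0.238 and 0.189 CPM in cKO animals, and Hist1h4c was at 0.417, 0.723, 0.339, 0.469 and 0.509 CPM in WT animals and at 0.337, 0.184, 0.175, 0.238 and 0.340 CPM in cKO animals. Both overlapped between the genotypes. Their log2 fold changes were -1.18 (SE 0.37, adjusted p = 0.0305, edgeR) and -0.94 (SE 0.32, adjusted p = 0.0467, edgeR), and the calls were kept in 3 and 1 of the 10 fits without 1 animal. Summed with its copy Hist1h4n, Hist1h4m gave -0.89 (SE 0.30, adjusted p = 0.0427, edgeR). Hist1h4i, the most abundant H4 gene by count, ranged from 3.79 to 5.85 CPM in WT and from 3.03 to 4.90 CPM in cKO animals (log2 fold change -0.19, SE 0.17, adjusted p = 0.414, edgeR). Hist4h4 ranged from 0.870 to 1.91 CPM in WT and from 0.680 to 1.70 CPM in cKO animals (log2 fold change -0.05, SE 0.30, adjusted p = 0.922, edgeR), a sign that turned without WT replicate 4. The H4 sum was 10.9 ± 1.26 CPM in WT crypts and 8.71 ± 0.690 CPM in cKO crypts, and the groups overlapped through WT replicate 1.

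Over all 70 genes the sum was 141 ± 10.1 CPM in WT crypts and 146 ± 6.34 CPM in cKO crypts (SD, n = 5), with overlapping groups, a log2 ratio of 0.05. On the deposited TPM, which divides by transcript length, the sums were 268 ± 23.9 and 211 ± 10.5 TPM. The 2 scales weight the classes differently, since H2A held 139 TPM in WT crypts and 85.4 TPM in cKO crypts. They also differ in scaling between libraries, since the TPM carries no TMM factor. These factors were 1 to 1.08 in WT and 0.934 to 0.986 in cKO libraries. The share of each difference was not tested. The 40 genes below the filter together held 4.21 to 12.9 CPM per library, and 4 of them were at 0 counts in all libraries, where 3 counts, the limit that a count of 0 allows, are 0.0966 to 0.111 CPM.

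The calls were also counted by annotated 3′ end. Of the 22 genes that ended at the stem-loop, 8 were tested, 4 were lower (Hist1h2ap, Hist1h2bb, Hist1h2bj and Hist1h4m) and 1 was higher (Hist2h2aa2), beside 12.7% and 15.6% of all genes tested. Of these 8 genes, 5 reached the filter level in all 5 WT libraries but not in all cKO libraries, 3 of the 4 called lower among them. Of the 22 that extended past it, 16 were tested, 3 were lower (Hist1h1d, Hist1h1e and Hist1h4c) and 2 were higher (Hist1h1c and Hist2h3c1). Among these 16 genes, 2 reached the filter level in all WT but not in all cKO libraries. Of the 26 without stem-loop letters, 6 were tested, with Hist1h1b lower and Hist1h2bc higher. Summed over the genes that ended at the stem-loop, the level was 44.3 ± 3.63 CPM in WT crypts and 27.8 ± 1.80 CPM in cKO crypts, lower in every cKO animal. Hist1h2ap made up most of it, at 33.5 ± 2.59 CPM in WT crypts and 16.2 ± 3.13 CPM in cKO crypts. The direction of this sum is therefore that of Hist1h2ap and does not speak for the other genes of the group. Over the genes that extended past the stem-loop, the groups overlapped, with 38.1 to 48.5 CPM in WT and 45.4 to 54.3 CPM in cKO animals. The 26 genes without stem-loop letters summed to 53.3 ± 4.39 CPM in WT crypts and 70.1 ± 5.87 CPM in cKO crypts, higher in every cKO animal. Most of that sum was Hist1h2bc, at 34.0 ± 6.18 CPM in WT crypts and 53.3 ± 7.07 CPM in cKO crypts.

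Of the 17 genes with a poly(A) signal near the annotated end, 12 were tested, none was lower and 2 were higher by the edgeR test. Of the 53 without one, 18 were tested, 8 were lower and 2 were higher. Over all genes tested, 12.7% were called lower and 15.6% higher. The median log2 fold change was -0.01 over the 12 genes and -0.68 over the 18. Summed, the 17 genes with a signal were at 48.1 ± 4.26 CPM in WT crypts and 56.0 ± 3.76 CPM in cKO crypts (SD, n = 5). The 53 genes without one were at 93.2 ± 6.74 CPM in WT crypts and 90.0 ± 5.57 CPM in cKO crypts. Both sums overlapped between the genotypes, and the second holds Hist1h2ap and Hist1h2bc, which moved in opposite directions. The difference between genes with and without a signal was not tested. Among the 18 genes, 7 reached the filter level in all WT but not in all cKO libraries, against 2 of the 12.

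**Figure D3:**
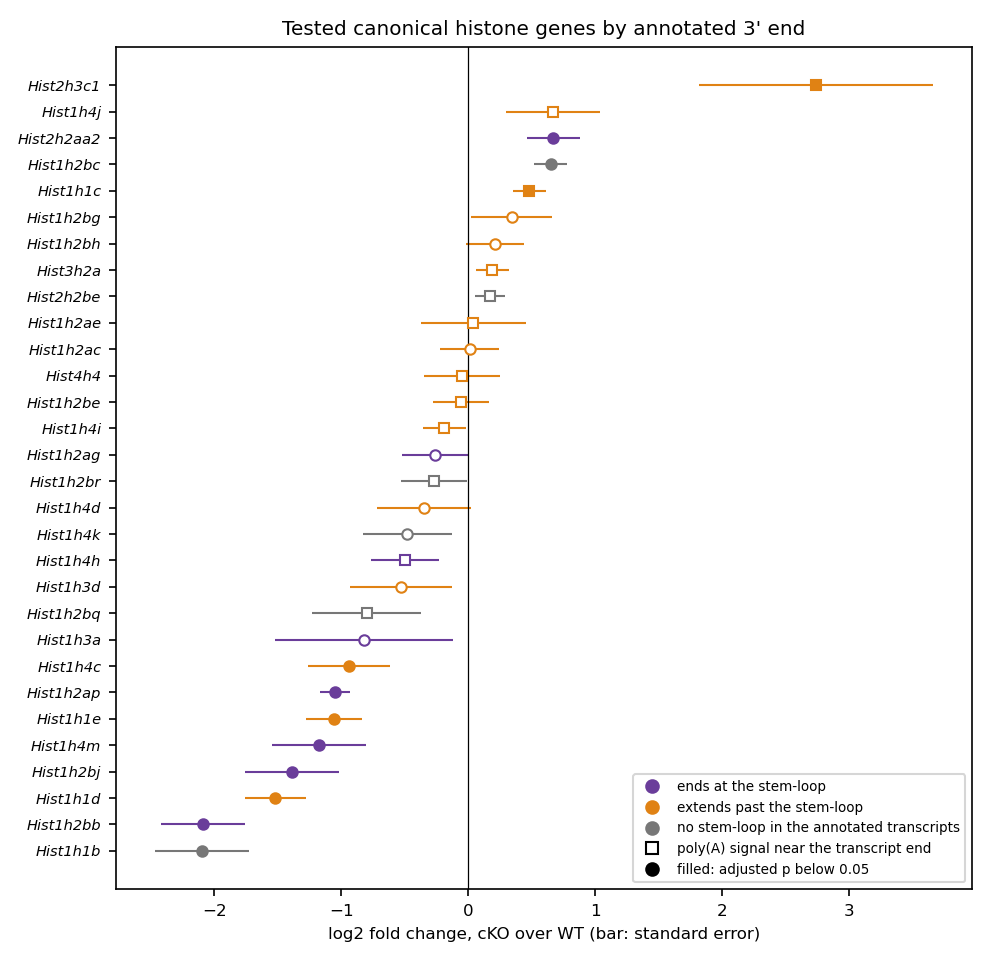
Log2 fold change of cKO over WT with its standard error (x axis) for the 30 tested canonical histone genes (y axis, in order of the value); colour gives the annotated end relative to the stem-loop, squares mark a poly(A) signal near the annotated end, and filled symbols passed the threshold. The 8 genes called lower have no such signal, and Hist1h2bc and Hist2h2aa2 without a signal were called higher. Over all genes tested, 12.7% were lower and 15.6% higher. Of the 18 tested genes without a signal, 7 reached the filter level in all WT but not in all cKO libraries.

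Among the 19 replication-independent variants, 12 were tested and 7 had at most 3 counts in every library. By the edgeR test, 2 were lower, 1 was higher and 9 were not called, and the median log2 fold change was -0.02. Over all genes tested, 28.3% were called, 12.7% lower and 15.6% higher, so the number of variants called does not set them apart. Per length, variants were far more abundant in these libraries than canonical genes, at 2590 ± 145 TPM in WT crypts and 2520 ± 116 TPM in cKO crypts (SD, n = 5). The linker variant H1fx was at 1.37 to 2.51 CPM in WT and 0.673 to 1.10 CPM in cKO animals (log2 fold change -1.05, SE 0.22, adjusted p = 0.00541, edgeR). H2afy, which encodes macroH2A, fell by 0.22 on the log2 scale (SE 0.06, adjusted p = 0.0234, edgeR), with overlapping groups. Its call was lost in 4 of the 10 fits without 1 animal, namely WT replicate 4 or 5 or cKO replicate 4 or 5, with adjusted p from 0.0538 to 0.0622 in edgeR's test. H3f3c was at 23.4, 14.2, 14.9, 14.5 and 13.4 CPM in WT and at 26.6, 31.0, 24.3, 24.8 and 28.9 CPM in cKO animals (log2 fold change 0.75, SE 0.14, adjusted p = 0.00363, edgeR).

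The other 9 tested variants did not pass the threshold. The log2 fold change was 0.06 for H3f3a (SE 0.06), 0.11 for H3f3b (SE 0.09) and 0.06 for H2afz (SE 0.12), signs that turn negative with scaling by library size only. It was 0.22 for H2afv (SE 0.08), -0.14 for H2afj (SE 0.09), -0.26 for H2afx (SE 0.09), which marks DNA breaks when phosphorylated, and -0.75 for H2afy2 (SE 0.28). It was 0.27 for the linker variant H1f0 (SE 0.11) and -0.10 for the centromeric Cenpa (SE 0.10). For H2afx every cKO animal lay below every WT animal, at 73.0 to 94.1 against 96.5 to 121 CPM, although its adjusted p was 0.0513 in the edgeR test.

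Within a library, canonical H2A was 7.87, 7.24, 7.92, 7.28 and 6.12% of the H2A variants in WT animals and 5.23, 5.08, 5.33, 6.05 and 5.89% in cKO animals. Canonical H3 was 0.381, 0.331, 0.345, 0.289 and 0.328% of the H3 variants in WT and 0.270, 0.194, 0.2, 0.210 and 0.217% in cKO animals. Both ratios were lower in every cKO animal. The direction for H2A rested on Hist1h2ap, since without it the log2 ratio of the genotype means was 0.41 in place of -0.40. That value keeps its copy Hist1h2ao, which was at 0 counts in every WT library. Without Hist1h2ag, Hist1h2ao and Hist1h2ap together, the canonical H2A sum had a log2 ratio of 0.15, with overlapping groups. For H3 without Hist1h3d, the log2 ratio of the canonical to variant ratio was -0.61 in place of -0.62. For H1 the same ratio was 6.37 ± 0.546% in WT crypts and 6.07 ± 1.02% in cKO crypts (SD, n = 5), with overlap.

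The genes that make, process and carry histones were read from 3 lists. Of 17 tested genes of histone mRNA 3′ end processing and decay, 10 were lower and none higher, beside 12.7% lower and 15.6% higher of all genes tested, with a median log2 fold change of -0.27. They included Lsm11, a part of the U7 snRNP that cleaves histone pre-mRNA (-0.45, SE 0.08, adjusted p = 0.00327, edgeR), and Srrt, which encodes the cap-associated protein ARS2 (-0.34, SE 0.08, adjusted p = 0.00819, edgeR). Of 10 tested regulators of histone transcription, 4 were lower and none higher, namely Ccne1 (-0.76), Cdk2 (-0.49), Ccne2 (-0.52) and E2f1 (-0.59), of which the cyclins E and their kinase CDK2 drive entry into S phase.

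Of 30 tested histone chaperones and assembly factors, 13 were lower and none higher, with a median log2 fold change of -0.18. Both large subunits of the replication-coupled chaperone CAF-1 were among them, Chaf1a (-0.54, SE 0.08, adjusted p = 0.00103, edgeR) and Chaf1b (-0.61, SE 0.09, adjusted p = 0.00149, edgeR). So were Asf1b (-0.46) and Nasp (-0.43), which hold H3 and H4 before deposition, and Mcm2 (-0.64), a subunit of the replicative helicase that also binds histones. Over the 3 lists, 27 of 56 genes were lower. Without WT replicates 3 and 4, 14 of the 56 were called, while the calls over all genes fell from 4167 to 2142.

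**Figure D4:**
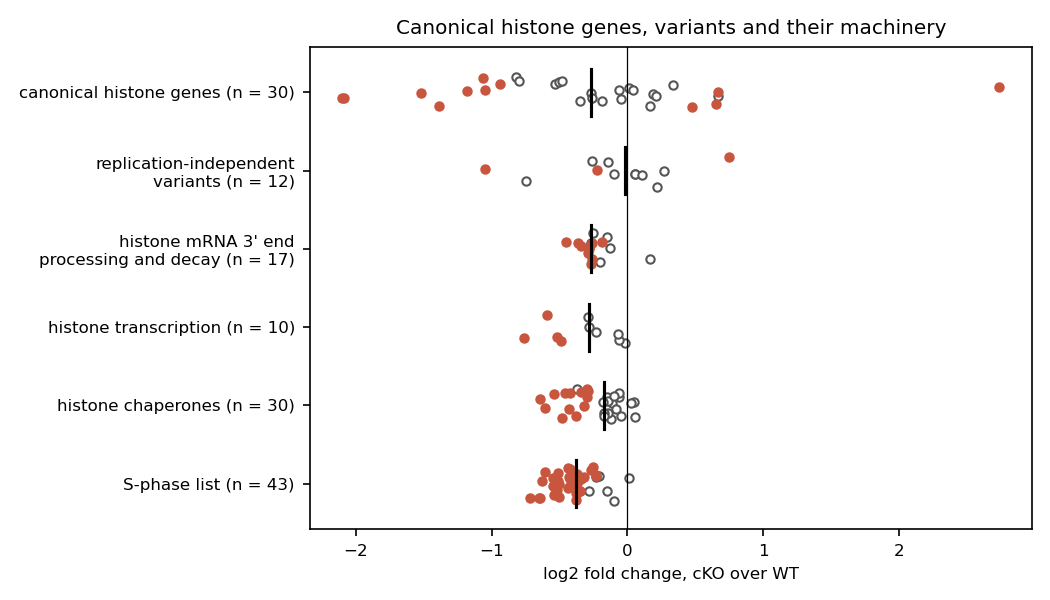
Log2 fold change of cKO over WT (x axis) of each tested gene in 6 lists (y axis, spread vertically for legibility); filled points passed the threshold and the black line is the median of the list. The medians were -0.26 for the canonical histone genes, -0.02 for the variants and -0.38 for the S-phase list, and the highest canonical value, 2.74, is that of Hist2h3c1, which was 0.10 when its copies were summed.

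Other values moved with these results. Of 43 S-phase genes, 37 were lower, and their sum was 3540 to 4410 CPM in WT and 2710 to 3130 CPM in cKO animals. Of 8 villus enterocyte markers, 6 were higher, and their sum was 888 to 4220 CPM in WT and 5020 to 10400 CPM in cKO animals. The sum of 10 lymphocyte and plasma cell markers was 165 to 265 CPM in WT and 61.0 to 120 CPM in cKO animals, and 3 were lower. The sums of the myeloid, stromal and erythroid markers overlapped, with cKO replicate 4 highest for myeloid (107 CPM) and stromal (155 CPM) markers, and of 12 crypt epithelium markers 2 were lower and 1 was higher, with a sum of 16700 to 22900 CPM in WT and 14900 to 16900 CPM in cKO animals. The part of these cells in the histone levels was not tested.

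The level of other RNAs without a poly(A) tail was read from a list of 27. It summed to 23.3 to 45.3 CPM in WT and 23.4 to 26.8 CPM in cKO animals, with overlap. Rn7sk, the 7SK RNA, was at 12.9, 5.57, 11.6, 22.5 and 12.9 CPM in WT and at 4.71, 5.23, 5.45, 4.18 and 4.84 CPM in cKO animals (log2 fold change -1.42, SE 0.29, adjusted p = 0.0057, edgeR). The signal recognition particle RNAs Rn7s1 and Rn7s2 (-0.10 each) and Rpph1 (-0.19) were not called. Their part in the levels of histone mRNAs that end at the stem-loop was not tested.

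WT replicates 3 and 4 had the lowest villus enterocyte sums (1320 and 888 CPM) and the highest S-phase sums (3990 and 4410 CPM). In a fit without both of them, chosen after seeing the data, 7 canonical genes were called, 1 higher and 6 lower. Over all genes, 2142 of 15072 were called in that fit, 1472 higher and 670 lower, in place of 4167 of 14719. Hist1h1b (-1.78, adjusted p = 0.0206), Hist1h1d (-1.38, adjusted p = 0.0120), Hist1h1e (-0.89, adjusted p = 0.0355), Hist1h2ap (-1.04, adjusted p = 0.00412), Hist1h2bb (-2.10, adjusted p = 0.0114) and Hist1h2bc (0.50, adjusted p = 0.0231) kept their edgeR calls. Hist1h1c, Hist1h2bj, Hist1h4c, Hist1h4m, Hist2h2aa2 and Hist2h3c1 lost theirs. The seventh gene called there was Hist2h3b, which passed the filter in that smaller set of libraries.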

How the data were processed

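RNA-seq libraries were made from polyA RNA of crypts of 5 WT and 5 cKO mice, and the groups and replicate numbers come from the labels. The authors ran nf-core/rnaseq 3.0, in which STAR aligned reads to GRCm38 and RSEM estimated counts on Ensembl 95, and deposited the expected count of each gene without scaling between libraries. The deposited TPM values, which the authors' pipeline scaled for transcript length and library total, were used for class sums only. The strand setting is not given in the sources used here, so overlapping genes may share counts, and RSEM divides reads of near-identical copies among them. The authors used DESeq2 for their own comparisons.

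Rounded to whole numbers, the expected counts were fitted with edgeR 4.0.16 in R 4.3.3 (TMM, filterByExpr by genotype with a minimum count of 10 and a minimum total count of 15, robust quasi-likelihood test, Benjamini-Hochberg adjustment over the 14719 genes tested, threshold 0.05). CPM is on TMM-scaled library sizes, and sums over members carry no test. Totals were 27050455 to 28152743 counts in WT and 28314069 to 31053622 in cKO libraries, so 1 CPM is 27 to 31 counts. Floors of 3 counts cover counting error only. No libraries were identical, and p-values measure the spread between animals. Genes without a symbol held 0.019% of counts. The fit was tested on simulated data.

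Named genes were every member past the threshold, the 3 most abundant members of each class by count, Arid3a, every tested variant and genes of the regulator lists past the threshold. The members and lists were chosen with earlier results of these data known. Symbols, stem-loops and poly(A) signals were read from GENCODE release 21 of the mouse (GRCm38), and promoters from RefSeq (GRCm38.p6) by gene ID. Copies were also summed before the fit, in sets joined through pairs that shared at least 60% of the 100-base windows of the gene with fewer. Other pairs of a set can share less. This summing and the fit without WT replicates 3 and 4 were added after seeing the data. Further alternatives were limma-voom (limma 3.58.1), DESeq2 1.42.0, scaling by library size only or by RLE factors, a fit without the filter, the replicate number as a block and leaving out each animal. Single-cell and chromatin libraries of the study were not analysed here.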

Additional observations from a re-analysis of the deposited data

Results flagged for a closer look

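Among 82 groups of 5 libraries examined (canonical genes, variants and class sums in each genotype), 7 held an animal far from the others, with a gap to its nearest neighbour above 0.71 of the group's range. Chance alone does this in about 1 of 20 groups. For Hist2h3c1, WT replicate 5 was at 0.436 CPM with the other WT animals at 0.0 to 0.0335 CPM, and cKO replicate 5 was at 0.0756 CPM with the other cKO animals at 0.713 to 0.810 CPM. The H3 sum of cKO replicate 1 was 3.06 CPM, above the 2.34 to 2.52 CPM of the other cKO animals. The H4 sum of WT replicate 1 was 8.77 CPM, below the 11 to 11.9 CPM of the other WT animals. Hist4h4 was at 1.91 CPM in WT replicate 4 and at 0.870 to 1.14 CPM in the others. H2afx was at 121 CPM in WT replicate 2 and at 96.5 to 103 CPM in the others, and H3f3c was at 23.4 CPM in WT replicate 1 and at 13.4 to 14.9 CPM in the others.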

How the results depend on the processing

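Of the 12 canonical genes called, 5 were called in each of 6 other fits and in each of the 10 fits that left out 1 animal, namely Hist1h1b, Hist1h1d, Hist1h1e, Hist1h2ap and Hist1h2bc. DESeq2 gave no adjusted p for 3 (Hist1h2bb, Hist1h4c and Hist2h3c1), and Hist1h2bb was called in all other fits. With the replicate number as a block (replicate block), 7 canonical genes were called, 2 higher and 5 lower. In that fit 3048 genes were called over all genes, in place of 4167. The numbers did not pair the animals, since same-numbered libraries correlated at -0.212 to 0.095 in their deviations from the group means and 0 of 5 WT libraries matched their own number best. Without WT replicates 3 and 4 together, 7 canonical genes (1 higher) and 14 genes of the regulator and chaperone lists were called, in place of 12 (4 higher) and 27, and Hist4h4 was at 0.21. The calls over all genes fell from 4167 to 2142 in that fit. With scaling by library size only, 2 canonical genes were called higher, 6 variants were called in place of 3 and 42 list genes in place of 27, the log2 fold changes of H2afz, H3f3a and H3f3b turned to -0.07, -0.07 and -0.02, and the log2 ratios of the H2A and H2B sums were -0.58 and 0.28. DESeq2 called 7 variants. Over all genes, 5574 were called with scaling by library size only and 4823 by DESeq2, in place of 4167. Without WT replicate 4 the calls over all genes were 3007, and without WT replicate 2 they were 4684. Leaving out 1 animal gave 2 to 4 canonical genes called higher (fewest without WT replicate 4) and 2 to 6 variants (most without WT replicate 2). It gave log2 fold changes of -0.22 to 0.19 for Hist4h4 and -0.03 to 0.13 for H2afz. On summed TPM the log2 ratio was -0.71 for H2A, 0.14 for H2B, -0.98 for H3 and -0.54 for H4, and that of the canonical to variant ratio was -0.61 for H2A and -0.93 for H3. Without the most abundant gene the log2 ratio was -1.41 for H1, 0.36 for H2A and -0.07 for H2B, and 0.41 for the H2A ratio. The 2 H2A values keep Hist1h2ao, and without Hist1h2ag, Hist1h2ao and Hist1h2ap together the log2 ratio of the H2A sum was 0.15. The causes were not tested. Of the other values, 164 counts and sums stayed near the main value, counts within a set fold and log2 ratios within the pooled SD. Of the single-gene values, 478 kept their sign and call status, while 50 lost and 13 gained a call. Genes under 1 CPM rest on fewer than 27 to 31 counts per library, and the division of reads among near-identical copies limits Hist1h2ap, Hist2h2aa2, Hist1h4m and Hist2h3c1.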
